A study of Mus musculus with 10 samples.

Results

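The Lce3 genes Lce3a, Lce3b, Lce3c, Lce3d, Lce3e and Lce3f, with the more distant relative Lce6a, are members of the late cornified envelope family. They were taken by gene symbol from a table of 56691 mouse genes, and all 7 were found among the 21 Lce genes of that table, the other 14 being Lce1 genes. Their transcripts were measured by RNA-seq of mouse esophageal epithelium: 5 libraries are wild type, and 5 come from the genotype p63CreERT2;Mst1loxp/loxp;Mst2-/-, called knockout here. Both groups had received tamoxifen, 3 doses of 100 mg/kg given every 2 weeks, and RNA was taken after around 8 weeks. Mst2 is deleted in every cell of the knockout mice, whereas deletion of Mst1 depends on a tamoxifen-activated Cre recombinase named for p63, a transcription factor of squamous basal cells. The wild-type mice are not described as carrying the Cre allele. No age is stated, and since no source says how many animals gave each library, p-values refer to the spread between these libraries, which may be technical. The question put to the Lce3 genes was whether their transcript levels differ between wild type and knockout.

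Late cornified envelope proteins are small proteins that are cross-linked by transglutaminases into the cornified envelope, the insoluble shell that replaces the plasma membrane of a squamous cell at the end of its differentiation. Their genes lie in the epidermal differentiation complex, together with those of loricrin, involucrin, the small proline-rich proteins and the filaggrin-like proteins. In human skin the LCE1 group belongs to the normal epidermis, and the LCE3 group is known for its induction after barrier injury and in psoriasis, which is why it is called the wound-type group. Mst1 and Mst2 are the kinases at the top of the Hippo pathway, which restrains the coactivators YAP and TAZ.

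The libraries held an estimated 13070000 to 16440000 fragments each. Transcript of Stk3, the gene of Mst2, lay between 2.08 and 3.48 FPKM in the wild-type group and between 0.05 and 0.25 FPKM in the other, while Stk4, the gene of Mst1, overlapped between the groups and cannot show the loss of single exons. FPKM are fragments scaled to gene length and to library size. The suprabasal keratin Krt13 was at 33902 to 38781 FPKM in every library. Of 3 suprabasal markers Krt78 fell (log2 fold change -1.005; limma adjusted p = 0.0385), a call that held in 3 of 10 fits without 1 library (up to 0.0988 without wild type 5) and not with median-ratio scaling (0.0529). Of 5 basal markers Trp63 fell (-0.76, limma adjusted p = 0.00293), and the others did not pass. Krt5 was at 0.40, Krt14 at 0.29, Krt15 at 0.11 and Itgb4 at -0.22 on the log2 scale (median of the 5 0.11). The summed level of 6 fibroblast markers was 4.44 to 13.6 FPKM in wild-type and 0.07 to 1.13 FPKM in knockout libraries. It was nearly all Dcn, since Col1a1, Col1a2, Col3a1, Lum and Pdgfra were at 0 to 0.08 FPKM in every library, and Dcn fell (log2 fold change -2.83; limma adjusted p = 8.62e-05). Summed markers of muscle reached 0.64 FPKM at most, endothelial markers 0.14 FPKM, hair follicle and sebaceous markers 0.04 FPKM and immune markers 3.97 FPKM. At 0 in all libraries were Col1a2, Des, Myh2, Cdh5, Kdr, Krt25, Krt71 and Krt73. Any part of the Dcn difference in the Lce values was not tested. The clock output gene Dbp was above 5 FPKM in wild type 1, 2 and 4 and in knockout 1 and 2, and below it in the other libraries.

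The Lce3 transcripts are nearly alike in their coding part, which bears on how reads can be assigned to them. In the GENCODE M21 models each Lce3 gene has 2 exons, with a coding sequence of 294 bases in 1 of them, and 276 of these positions are identical in all 6 genes. Pairs of Lce3 coding sequences were 94.6% to 99.3% identical, the closest pair being Lce3d and Lce3f, and each was 49.3% to 50.7% identical to Lce6a. The longest run shared by all 6, 86 bases starting at coding position 175, is shown because a read that lies within it can come from any of them:

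Lce3a to Lce3f, shared coding run: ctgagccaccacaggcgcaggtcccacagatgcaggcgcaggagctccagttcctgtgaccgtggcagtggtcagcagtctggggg

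Of the 75-base sequences of each transcript, the share found in another gene was 45.6% for Lce3f, 41.1% for Lce3e, 38.6% for Lce3d, 28.0% for Lce3c, 9.47% for Lce3a and 6.15% for Lce3b, and the genes that share them most are other Lce3 genes. None of the 75-base sequences of Lce6a was found elsewhere. How the authors' counting treated reads that fit several genes was not stated. The level of each single Lce3 gene is therefore uncertain, most of all for Lce3c, Lce3d, Lce3e and Lce3f.

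The sequence just upstream of the genes was compared as well, because most of the Lce3 genes varied together from library to library. The 100 bases before each RefSeq start are given on the gene's strand, from build GRCm38.p6, all on chromosome 3. Capitals mark ATAAAA, a form of the TATA box, which positions the start of transcription, and TTGTGAAA, an element picked by eye in these sequences:

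Lce3a, chr3:92926231-92926330, minus strand: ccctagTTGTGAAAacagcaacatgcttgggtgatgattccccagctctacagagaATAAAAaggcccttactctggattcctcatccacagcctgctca

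Lce3b, chr3:92932879-92932978, plus strand: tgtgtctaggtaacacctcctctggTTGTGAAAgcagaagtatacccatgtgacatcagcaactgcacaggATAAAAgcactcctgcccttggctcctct

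Lce3c, chr3:92944386-92944485, plus strand: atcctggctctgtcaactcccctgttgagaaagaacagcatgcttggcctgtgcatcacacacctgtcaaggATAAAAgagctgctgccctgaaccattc

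Lce3d, chr3:92957290-92957389, plus strand: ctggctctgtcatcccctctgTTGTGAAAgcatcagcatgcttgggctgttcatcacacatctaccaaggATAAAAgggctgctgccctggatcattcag

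Lce3e, chr3:92966961-92967060, plus strand: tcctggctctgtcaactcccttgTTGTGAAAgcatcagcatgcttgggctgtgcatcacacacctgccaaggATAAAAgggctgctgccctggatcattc

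Lce3f, chr3:92992117-92992216, plus strand: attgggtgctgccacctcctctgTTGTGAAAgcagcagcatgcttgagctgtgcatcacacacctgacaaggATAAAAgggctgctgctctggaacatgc

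Lce6a, chr3:92621661-92621760, minus strand: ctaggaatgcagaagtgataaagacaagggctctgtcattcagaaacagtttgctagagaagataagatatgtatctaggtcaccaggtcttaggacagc

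All 6 Lce3 genes hold ATAAAA, on the gene's strand, 28 to 30 bases before the start in Lce3b to Lce3f and 44 bases before it in Lce3a. Searched on both strands, ATAAAA occurs in the same window of 7.07% of 32817 promoters. TTGTGAAA is found in the Lce3 genes other than Lce3c, 75 to 94 bases before the start, and in 0.408% of promoters. Because it was picked from these windows, its presence in them follows from the choice, and the share over promoters is no test of it. The windows of Lce3c, Lce3d, Lce3e and Lce3f were 81.4% to 90.1% identical in pairs, against 45% to 67.6% for pairs with Lce3a or Lce3b. Lce3a and Lce3b, with windows 45% identical, had a Pearson correlation of log2 levels of 0.91 over the 10 libraries. It was 0.92 for Lce3e and Lce3f (84.0% identical) and 0.64 for Lce3d and Lce3e (89.2%). A link between likeness of the windows and joint variation was not tested. The Lce6a window holds neither motif, and it alone has GGAATG, the core of the TEAD motif, which is in 4.70% of promoters. TGANTCA, the AP-1 motif, is in 2.73% of promoters and in none of these windows. A match describes the letters of the window and shows no binding.

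Lce3 transcripts were among the most abundant of the epithelium, in mice with no stated injury. Averaged over the 10 libraries and per length, Lce3a stood at rank 25 of the 56691 genes with 1965 FPKM, Lce3f at rank 32 with 1475 FPKM and Lce3b at rank 35 with 1408 FPKM. Lce3c (981 FPKM), Lce3e (903 FPKM) and Lce3d (366 FPKM) followed at ranks 45, 48 and 106. Lce6a, at 1.14 FPKM, was far below them. Lce3a was above Lce3f, Lce3b above Lce3c, and Lce3e above Lce3d in 10 of 10 libraries each. Lce3f exceeded Lce3b in 8 of 10 libraries, and in wild type in 3 of 5, so these neighbours cannot be ordered. Lce3c exceeded Lce3e in 5 of 5 wild-type libraries but in 1 of 5 knockout libraries. Each Lce3 value rests on an estimated 1526 to 25096 fragments, so that counting error is small beside the spread between libraries. Together the 6 genes made up 1.29% to 2.30% of the summed FPKM of wild-type libraries and 1.33% to 2.26% of that of knockout libraries.

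The summed Lce3 level was similar in both groups. It was 6339, 9604, 7258, 5032 and 6838 FPKM in wild type 1 to 5. In knockout 1 to 5 it was 5338, 9400, 6852, 7342 and 6972 FPKM. Each group had 1 high library, number 2 in both, and 1 low library, wild type 4 and knockout 1, and the groups overlapped over nearly their whole range. The means were 7014 ± 1672 and 7181 ± 1458 FPKM (SD, n = 5 and 5), a ratio of 1.02. Wild type 2 and knockout 2 also had the highest FPKM sums over all genes, 417148 and 415287, and the part of this in their Lce3 levels was not tested.

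None of the 7 genes passed the test between the genotypes. The test was limma on log2(FPKM + 1), with Benjamini-Hochberg adjustment over the 11386 genes that reached 1 FPKM in 5 or more libraries. With an adjusted p under 0.05 as threshold it called 12.9% of tested genes, 7.9% as higher and 4.96% as lower in knockout. All 7 members were tested and 0 were called, and at an unadjusted p under 0.05 there was 1, Lce3d. In no member did the groups separate, which they did in 10.5% of tested genes. The median log2 fold change was 0.15 over the 7 members and 0.06 over all tested genes.

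**Figure D1:**
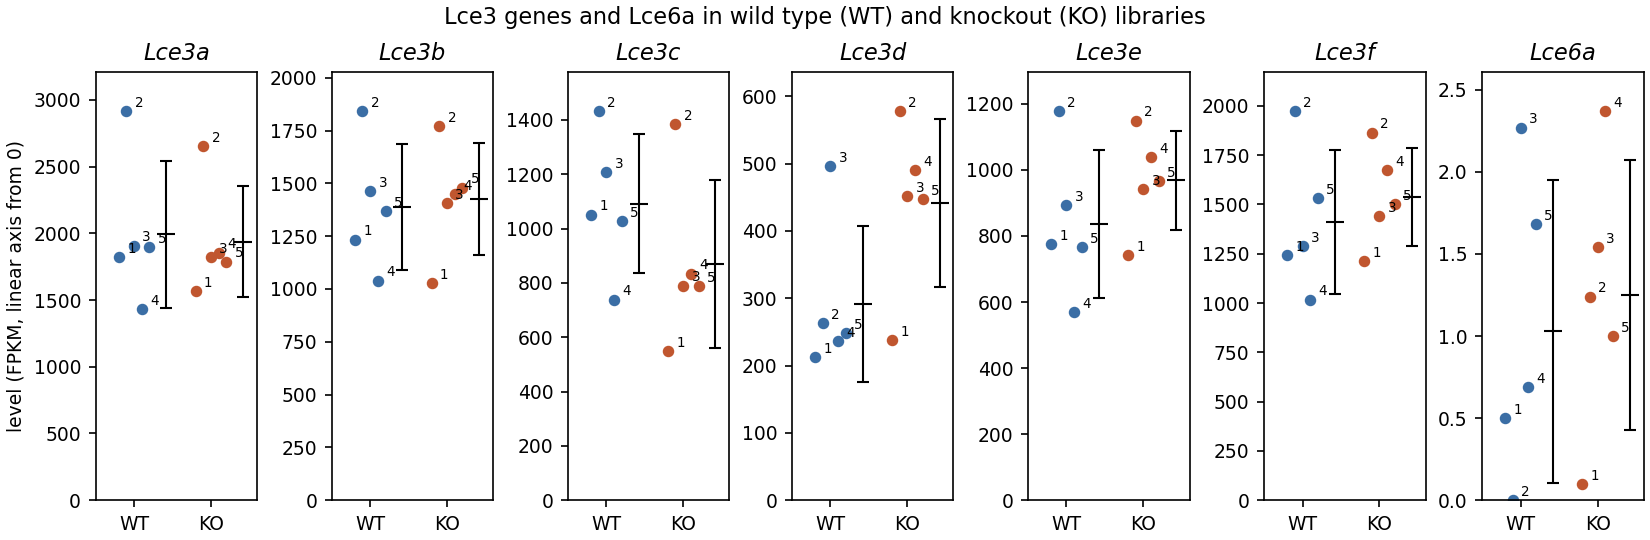
Level of each gene in FPKM (linear axes from 0, scaled per gene) in 5 wild-type (WT) and 5 knockout (KO) libraries; numbers are replicates, bars the mean and SD. The groups overlap in all 7 panels, replicate 2 is the highest of its group for Lce3a, Lce3b, Lce3c, Lce3e and Lce3f, and wild type 3 stands above the other wild-type libraries for Lce3d.

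Lce3a, Lce3b and Lce3f, the 3 most abundant members, had similar mean levels in both groups, with intervals that leave room for moderate differences. Lce3a (ENSMUSG00000054325) was at 1821, 2915, 1908, 1429 and 1895 FPKM in wild type 1 to 5 and at 1567, 2652, 1821, 1855 and 1788 FPKM in knockout 1 to 5. Its log2 fold change was -0.03 (SE 0.20, 95% interval -0.47 to 0.41; limma adjusted p = 0.953). As a change of level the interval spans -27.6% to 33.3%. Lce3b (ENSMUSG00000042031), the Lce3 gene that shares least sequence with the others, had group means of 1389 ± 299 and 1427 ± 264 FPKM (SD). Its log2 fold change was 0.04 (SE 0.19, 95% interval -0.36 to 0.45; limma adjusted p = 0.905). Lce3f (ENSMUSG00000068885) had 1411 ± 363 and 1538 ± 246 FPKM, and its fold change was 0.15 on the log2 scale (SE 0.19, 95% interval -0.27 to 0.56; limma adjusted p = 0.646). The direction of Lce3a turned with quantile normalization (0.15) and without wild type 2 (0.12), and that of Lce3b without wild type 4 (-0.05). With quantile normalization Lce3f was at 0.35 (limma adjusted p = 0.153).

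Lce3d (ENSMUSG00000043472), the least abundant Lce3 gene, had the largest log2 fold change of the 7, whereas in FPKM the means of Lce3c differed more. Lce3c also had the larger log2 difference with the clock covariate (-0.40) and without knockout 2 (-0.54). Lce3d was at 212, 263, 496, 236 and 248 FPKM in wild type 1 to 5. In knockout 1 to 5 Lce3d was at 238, 578, 452, 490 and 447 FPKM. Libraries 2 to 5 of the knockout lay above 4 of the wild-type libraries, while knockout 1 lay among those 4 and wild type 3 lay among the higher knockout libraries. The group means were 291 ± 116 and 441 ± 125 FPKM (SD). On the log2 scale the difference was 0.61 (SE 0.27, 95% interval 0.03 to 1.19), which did not pass (limma, unadjusted p = 0.0408 and adjusted p = 0.149). Without wild type 3 the log2 fold change was 0.82 and passed (limma adjusted p = 0.0388), as it did without knockout 1 (0.82; limma adjusted p = 0.0482). With a score of clock output genes as covariate it was 0.34 (limma adjusted p = 0.393), and the part of the clock in it was not tested further. Within the libraries of low Dbp, Lce3d was at 248 and 496 FPKM in wild type and 447 to 490 FPKM in knockout, and within those of high Dbp at 212 to 263 and at 238 and 578 FPKM.

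Lce3c and Lce3e differed in opposite directions, and neither passed. Lce3c (ENSMUSG00000045475) was at 1052, 1433, 1208, 739 and 1028 FPKM in wild type 1 to 5 and at 550, 1386, 790, 835 and 788 FPKM in knockout 1 to 5. Apart from knockout 2, all knockout libraries were below 4 of the wild-type libraries. The log2 fold change was -0.36 (SE 0.24, 95% interval -0.88 to 0.16; limma adjusted p = 0.340), with -0.54 without knockout 2 and -0.21 without knockout 1 (limma adjusted p = 0.113 and 0.6004). Lce3e (ENSMUSG00000074433) was at 776, 1178, 894, 570 and 766 FPKM in wild type and at 742, 1150, 943, 1039 and 967 FPKM in knockout. Its log2 fold change was 0.24 (SE 0.19, 95% interval -0.18 to 0.65; limma adjusted p = 0.444).

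Lce6a (ENSMUSG00000086848) was close to the detection limit. Wild type 1 to 5 were at 0.50, 0, 2.27, 0.69 and 1.68 FPKM, knockout 1 to 5 at 0.10, 1.24, 1.54, 2.37 and 1.00 FPKM, and neither group stood above the other. With the GENCODE length of 795 bases, its 9 values above 0 came out within 0.0515 of whole fragments, at 1 to 26 fragments. The 0 in wild type 2 allows up to 3 fragments, or 0.241 FPKM, for counting error only. The log2 fold change was 0.19 (SE 0.35, 95% interval -0.59 to 0.96; limma adjusted p = 0.765), and its sign turned without wild type 2 (-0.04) and with the clock covariate (-0.22). The fragments behind these values ranged from 0 to 26 in wild type and from 1 to 26 in knockout.

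The make-up of the Lce3 pool shows the differences between members without the swings of the whole pool. Shares within a library add up to the whole, so a lower share of Lce3c raises those of the others. The shifts below are therefore not separate differences. Lce3c made up 16.6%, 14.9%, 16.6%, 14.7% and 15.03% of the summed Lce3 level in wild type 1 to 5, and 10.3%, 14.7%, 11.5%, 11.4% and 11.3% in knockout 1 to 5. Knockout 2, at 14.74%, lay just above the lowest wild-type library, wild type 4 at 14.68%, and the other knockout libraries lay below all wild-type libraries. Lce3e took 11.2% to 12.3% in the wild-type group and 12.2% to 14.2% in the knockout group, where knockout 2 was again the library within the wild-type range. Lce3d took 2.74% to 4.69% in 4 wild-type libraries and 6.83% in wild type 3, against 4.46% in knockout 1 and 6.15% to 6.67% in the other knockout libraries. Lce3b took 19.2% to 20.7% and 18.8% to 21.2%, with nearly equal means of 19.9% in both groups. These shares were examined after the values were seen and are given without a test. They rest on the division of reads between genes of nearly equal sequence, whose part in them was not tested.

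**Figure D2:**
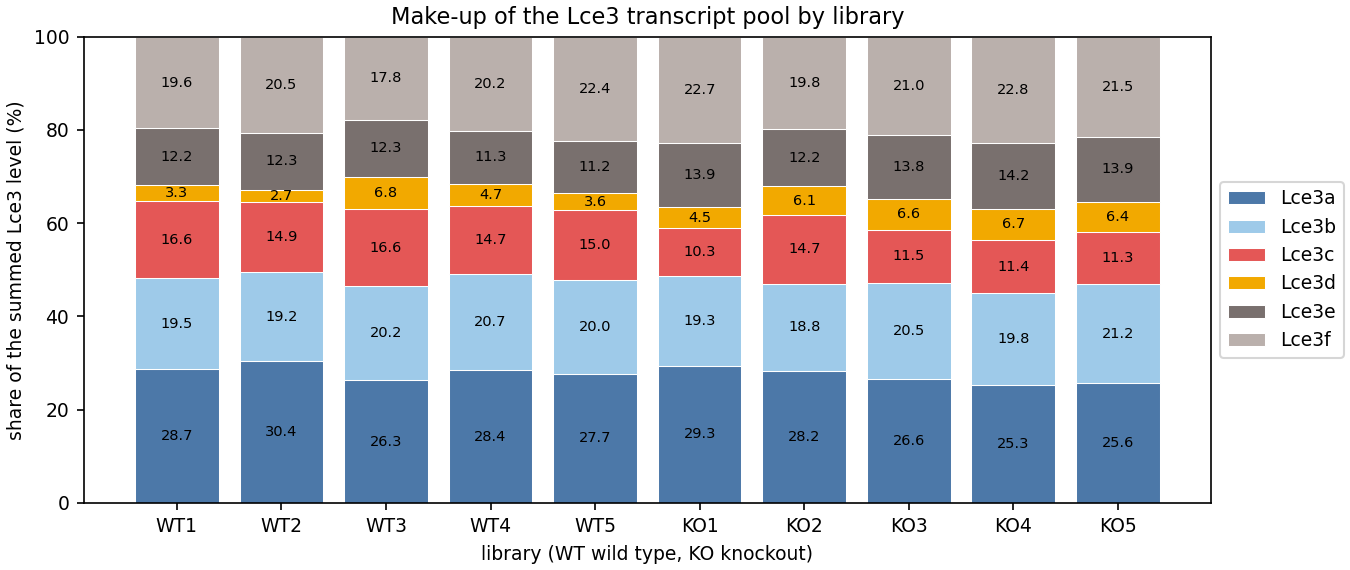
Share of each gene in the summed FPKM of the 6 Lce3 genes, in percent, for 5 wild-type (WT) and 5 knockout (KO) libraries. Lce3c is at 14.7% to 16.6% in the wild-type libraries and at 10.3% to 11.5% in knockout except in knockout 2 (14.7%), and Lce3a is the largest share in every library.

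Lce3a, Lce3b, Lce3e and Lce3f varied together from library to library. Pearson correlations of their log2 values over the 10 libraries were 0.84 to 0.92 in pairs, and 0.92 to 0.96 once the group means were removed. Lce3c followed them within the groups (0.84 to 0.93) and less so over both groups (0.57 to 0.84). Lce3d was less alike to the other Lce3 genes, with 0.23 to 0.64 over the 10 libraries, and Lce6a correlated with Lce3d at 0.67 and with the others at -0.13 to 0.19. These are descriptions over libraries that share their depth and scaling, and for the Lce3 genes shared sequence as well. Outside the family, the gene most alike was Crct1, a small cysteine-rich protein gene of the same complex, at 0.94 with Lce3a, 0.95 with Lce3f and 0.89 with Lce3b, where Gm6286 was as close (0.89). Crct1 was also similar between the groups, at 2494 ± 466 and 2608 ± 367 FPKM (SD; log2 fold change 0.08, SE 0.17; limma adjusted p = 0.802). The other genes most alike were Gm37486 and Pla2g7 for Lce3a, Tpd52 for Lce3b, Glrx and Uchl3 for Lce3f, and Uchl3, Myzap and Gm20684 for Lce3e, at 0.83 to 0.91. Lce3c was most alike to the beta-defensin gene Defb4 (0.93), then Gm31300 and Wdr53, and Lce3d to the pseudogene Sprr2j-ps (0.94), then Gm20689 and Ripply3. For Lce6a they were Gm38119, Stx6 and Ephx4, at 0.92 each. None of these most alike genes passed the genotype test, which follows largely from their choice. They were picked for likeness over all 10 libraries, genotype difference included, to members that did not pass. The similar Crct1 levels in both groups are likewise no separate result.

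The Lce1 genes, the skin-type group of the family, were at lower levels in most knockout libraries. Their summed level was 5148, 4017, 4627, 4488 and 7880 FPKM in wild type 1 to 5 and 635, 1546, 2825, 4533 and 2273 FPKM in knockout 1 to 5. Knockout 4 lay within the wild-type range and the other knockout libraries below it. The ratio of the Lce3 sum to the Lce1 sum was 0.868 to 2.39 in wild-type libraries and 1.62 to 8.41 in knockout libraries, with the highest values in knockout 1 and 2. Of the 14 Lce1 genes 6 were lower, none was higher and 8 did not pass (median log2 fold change -1.43). Over all tested genes 4.96% were lower. With the clock covariate 11 of the 14 were lower, as were 485 of all 11386 tested genes. The Lce1 genes were not tested against these shares. Lce1k fell by 4.09 on the log2 scale (limma adjusted p = 0.00239) and Lce1a2 fell by 1.69 (limma adjusted p = 0.0176), and Lce1a1, Lce1b, Lce1c and Lce1d were also called. The Lce1a1 call was also lost with median-ratio scaling (limma adjusted p = 0.0536). Lce1k kept its call without any 1 library, whereas the other 5 lost theirs in at least 1 such fit, all of them without wild type 5 (limma adjusted p = 0.0525 to 0.109). The most abundant, Lce1a1, had 796 ± 189 and 371 ± 209 FPKM (SD). The difference between the Lce3 and the Lce1 group was not itself tested.

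**Figure D3:**
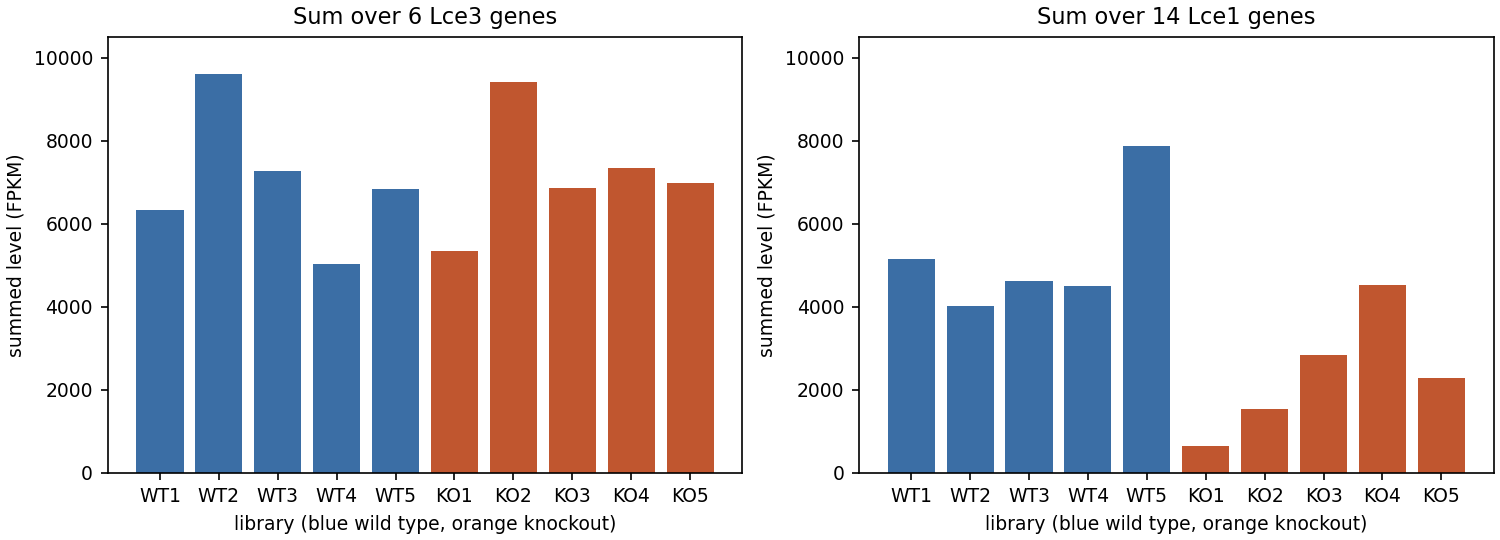
Summed FPKM of the 6 Lce3 genes (left) and the 14 Lce1 genes (right) in each library, on the same scale from 0; blue wild type (WT), orange knockout (KO). The Lce3 sums lie between 5032 and 9604 FPKM in both groups, while the Lce1 sums go down to 635 FPKM in knockout 1.

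In the order of genes along chromosome 3, the Lce3 genes form an unbroken stretch. In GENCODE M21 the 6 genes span 68.1 kilobases, with a processed pseudogene and small nuclear RNA models between them, and Lce3a is transcribed against the other 5. Among the tested genes of the complex Lce1l comes before the block and Crct1 and Lce1m after it, while Lce6a lies 304 kilobases away at the far side of the Lce1 genes, next to Ivl. The log2 fold changes of Lce1l and Lce1m, -0.99 and -2.03, did not pass (limma adjusted p = 0.262 and 0.0666).

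**Figure D4:**
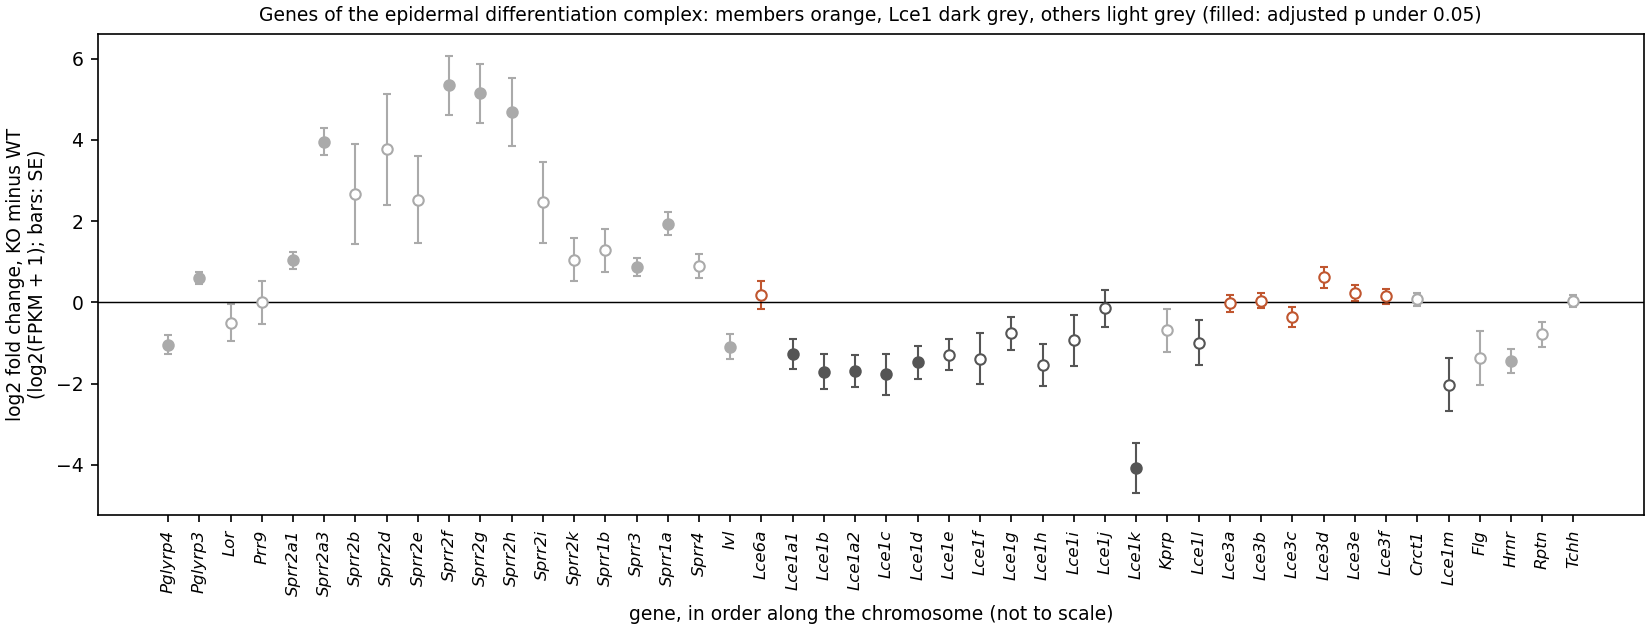
Log2 fold change (knockout minus wild type, log2(FPKM + 1); bars are SE) of the tested genes of the epidermal differentiation complex in their order along the chromosome, not to scale; members orange, filled where the limma adjusted p is under 0.05. The 7 members lie between -0.36 and 0.61, with Sprr2 genes above 1 and most Lce1 genes below -0.5.

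Other genes of cornification moved in both directions around the Lce3 genes. Of 25 tested genes of the complex outside the Lce family 8 were higher and 3 lower, with a median log2 fold change of 0.89. The small proline-rich genes Sprr2a3, Sprr1a, Sprr2f and Sprr2g rose, with log2 fold changes of 3.96, 1.94, 5.34 and 5.15 (limma adjusted p = 2.57e-05 to 0.00181), and the abundant Sprr3 by 0.87 (limma adjusted p = 0.0219; lost without wild type 1 and without wild type 5, at up to 0.0604). The filaggrin-like Hrnr, the peptidoglycan recognition gene Pglyrp4 and involucrin, Ivl, fell; the Ivl call held in 3 of 10 fits without 1 library (limma adjusted p = 0.0909 without knockout 5). Repetin, Rptn, stood at 4010 ± 911 and 2473 ± 1039 FPKM, without passing (limma adjusted p = 0.111; 0.00616 with the clock covariate). Lce1 and Sprr2 genes also have close copies, so their single values are uncertain too. Of 13 genes of the envelope scaffold and its cross-linking, the proteinase inhibitor Cstb (log2 fold change 0.79; limma adjusted p = 0.00783) and cornifelin, Cnfn (0.50; limma adjusted p = 0.0444), rose and 11 did not pass. The Cnfn call was lost in 9 of 10 fits that each left out 1 library, at up to 0.107 without knockout 5, and with median-ratio scaling (limma adjusted p = 0.0988). Among the 11 were the transglutaminase genes Tgm1, Tgm3 and Tgm5 and the abundant proteinase gene Asprv1 (4839 ± 1095 and 4270 ± 625 FPKM). The 9 tested genes of epidermal terminal differentiation include Hrnr, Flg and Lor of the complex and Casp14 and Asprv1 of the scaffold list. Of these 9 Hrnr, already counted above, fell and none rose (median -0.50, with 3 lower under the clock covariate). Lor, loricrin, was at 1764 ± 678 and 1290 ± 612 FPKM (limma adjusted p = 0.500). Over all tested genes 12.9% were called, 7.9% as higher and 4.96% as lower, and no list was tested against these shares.

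Genes that keratinocytes are known to induce on wounding, the setting for which the human LCE3 group is known, were examined as a list. Of 16 tested, 2 rose, 1 fell and 13 did not pass, with a median log2 fold change of 0.76. Over all tested genes 12.9% were called and the median was 0.06. The list was not tested against these. Its largest log2 fold changes, Defb3 at 3.54 and S100a8 at 3.38, did not pass (limma adjusted p = 0.0808 and 0.0938). Nor did S100a9 at 1.93 (limma adjusted p = 0.0943). Defb3 and S100a9 passed without knockout 2 (limma adjusted p = 0.0460 and 0.0330), whereas S100a8 passed in none of the fits without 1 library. The EGF family ligand Hbegf rose (log2 fold change 1.73; limma adjusted p = 0.00661), as did the cytokine gene Il36g (0.78; limma adjusted p = 0.0150), and the stefin gene Stfa1 fell by 1.82 on the log2 scale (limma adjusted p = 0.00628). The 4 wound keratins of the list did not pass. Krt16 and Krt17 had log2 fold changes of 2.25 and -0.56 (limma adjusted p = 0.284 and 0.741). Krt6a was at 280 ± 288 and 738 ± 363 FPKM (limma adjusted p = 0.0743) and Krt6b at 272 ± 345 and 774 ± 389 FPKM (limma adjusted p = 0.105). Wild type 3, the wild-type library with the highest Lce3d, also had the highest Krt6a and Krt6b of its group, 721 and 855 FPKM, against 74.5 to 426 and 25.2 to 306 FPKM in the other 4. Without it Krt6a and Krt6b passed (limma adjusted p = 0.0180 and 0.0217), and Krt6a also passed without wild type 4. The knockout group differed in this. Knockout 2 had its highest Lce3d (578 FPKM) but its lowest Krt6a and Krt6b, 454 and 406 FPKM. Knockout 3 had its highest Krt6a and Krt6b, 1335 and 1385 FPKM, with Lce3d at 452 FPKM. Defb4, the most abundant gene of this list, had 2867 ± 419 and 2282 ± 636 FPKM (limma adjusted p = 0.238).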

How the data were processed

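RNA of esophageal epithelium, freed of muscle and mesenchyme with Dispase, was sequenced as read pairs, per the labels' protocols. The authors deposited FPKM values per gene and library; cutadapt, HISAT2 2.0.1, HTSeq 0.6.1 and mm9 are named, per the submitters' processing notes, without settings, strand or annotation release. Members were matched by symbol. Fragment totals were estimated as the smallest total at which FPKM of single-exon genes up to 1200 bases give whole fragments (within 0.01 beyond rounding for 90.2% to 97.8% of values). Gene models came from GENCODE M21 on GRCm38, which is not mm9, and upstream sequences from RefSeq (GRCm38.p6, 7 of 7 members matched).

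Genes that reached 1 FPKM in 5 or more libraries were tested with limma 3.58.1 (R 4.3.3) on log2(FPKM + 1), a scale that understates changes of low genes, with trend and robust estimation and genotype as the only term. On simulated data with 11386 genes and 5 and 5 libraries it recovered 44.8%, 82.1% and 98.5% of changes of 0.5, 1 and 2 log2 units. Of its calls there 7.98% were false. The simulation changed 67, 67 and 66 genes, far fewer than the 1465 called in the data, with noise drawn independently for each gene. Its recovery is an average over all genes and was not worked out for the Lce3 genes. Named are all members, for each the 3 most correlated genes, and from each list up to 4 called genes by smallest p and the 2 most abundant; other genes were named after their values were seen. Members and lists were chosen with earlier results of these data known. Alternatives were other pseudocounts (0.1 and 5), filters, scalings, limma settings, a replicate block, a clock covariate (Dbp, Nr1d1, Per3, Tef) and leaving out each library; the split by Dbp was added after seeing the data. Figures: matplotlib 3.10.9; alignment: Biopython 1.88.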

Additional observations from a re-analysis of the deposited data

Results flagged for a closer look

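In 14 groups of 5 values (7 genes, both genotypes), 2 had a library far from the rest by Dixon's criterion, which chance gives in about 1 of 20 groups. Lce3d was at 495.81 FPKM in wild type 3, with the next wild-type library at 263 FPKM. Lce3a was at 2652.43 FPKM in knockout 2, with the next knockout library at 1855 FPKM.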

How the results depend on the processing

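The count of called members was 0 under the 10 alternatives that keep all libraries and in both Dbp classes, and 0 to 1 when single libraries were left out, the 1 being Lce3d without wild type 3 or without knockout 1. Called genes over the whole table numbered 1465, and 793 to 1770 without single libraries (793 without wild type 5, 858 without wild type 1, 898 without knockout 5). Higher genes made up 61.4% of calls, 50.8% with median-ratio scaling and 47.9% with quantile normalization. Leaving out single libraries gave log2 fold changes of -0.14 to 0.12 for Lce3a, -0.0546 to 0.16 for Lce3b, -0.54 to -0.21 for Lce3c, 0.50 to 0.82 for Lce3d, 0.11 to 0.37 for Lce3e, 0.036 to 0.28 for Lce3f (both lowest without wild type 4 and highest without wild type 2) and -0.0387 to 0.42 for Lce6a. Lce3a was also positive with quantile normalization (0.15), sample quality weights (0.0401) and among high-Dbp libraries (0.0529). With the clock covariate Lce3b was at -0.0476 and Lce6a at -0.22, and Lce6a was at -0.20 among low-Dbp libraries. Lce3c, Lce3d, Lce3e and Lce3f kept their direction under all 22 alternatives run; the cause of the turns was not tested. The replicate block called 0 members (Lce3d: 0.61, limma adjusted p = 0.0833) and 1324 genes in all. Whether the numbers pair the libraries cannot be told from so few libraries. Same-numbered libraries deviated together at correlations of -0.24 to 0.42, highest for number 2. Of the 5 wild-type libraries 1 correlated best with its own number. With the filter at 5 FPKM, Lce6a could not be tested. Lce6a rests on 0 to 26 fragments a library.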

Other observations

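Knockout 2, the knockout library whose Lce3c and Lce3e shares lay within the wild-type range, was also the only knockout library with the ribosomal protein gene Rps3a1, likewise on chromosome 3, near wild-type levels. Rps3a1 was at 590 FPKM there, at 8.08 to 11.4 FPKM in the other 4 knockout libraries and at 611 to 1058 FPKM in wild type. The like-named genes Rps3a2 and Rps3a3 were higher in knockout (log2 fold change 4.01 and 4.36, limma adjusted p = 6.03e-08 and 1.13e-08). For both, every knockout library, knockout 2 included, lay above every wild-type library. Rpl34 was lower (log2 fold change -4.12) and Rpl34-ps1 higher (3.09). The division of reads between such like-named genes, and its part in the Rps3a1 values, was not tested. Rps3a1 and these genes were picked after their values were seen.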
